A study of Mus musculus with 2 samples.

Results

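Cells keep free zinc low by moving it across membranes and by binding it. Members of the ZnT family (Slc30a genes) carry zinc out of the cytosol, either across the plasma membrane or into organelles, and members of the ZIP family (Slc39a genes) carry it into the cytosol. Metallothioneins (Mt genes) are small cysteine-rich proteins that bind zinc and copper, and their genes are switched on by the zinc-sensing transcription factor MTF1 through metal response elements in their promoters. Copper enters cells through the transporter of Slc31a1 and is pumped into the secretory pathway or out of the cell by the ATPases of Atp7a and Atp7b.

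The genes described here are all those whose symbol starts with Slc30a or Slc39a, together with Mt1, Mt2, Mt3, Mtf1, Mtf2, Slc31a1, Slc31a2, Atp7a and Atp7b. Of 34 such symbols in the RefSeq gene table, 29 were found among the 16881 transcripts of the deposited table, and 23 of these were measured, meaning that they had a mean of at least 1 CPM (fragments per 1000000) over both libraries. Slc30a8, Slc30a10, Slc39a2, Slc39a12 and the pseudogene Slc39a1-ps were not analysed here. The libraries came from immortalised mouse embryonic fibroblasts on the C57BL/6 strain, 1 library of p65+/+ cells (wild-type) and 1 of p65-/- cells (p65-null). Rela encodes p65, which is part of the transcription factor NF-kB. The labels name no treatment, time, metal supplement or number of clones for either genotype, and each group is a single library. Since each genotype has 1 library, no difference could be checked against replicates and none carries a p-value. Genotype cannot be told apart from any other difference between these 2 libraries. Levels are normalised CPM, that is fragments per 1000000 after scaling of the libraries, and ratios are p65-null over wild-type. Intervals are at 95% (Clopper-Pearson for ratios and shares) and cover counting error only. Gene coordinates are RefSeq gene spans on GRCm38 (mm10), which also cover predicted transcripts. Exon overlaps are between all exons that GENCODE M21 gives for each gene.

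Depth was 20794476 fragments for wild-type and 15441394 for p65-null cells. Rela had 90.4 normalised CPM in wild-type and 13.1 in p65-null cells, 6.90-fold lower (5.96 to 8.02), lower in the library labelled p65-/-. The deleted exons are not named in the labels, so the remaining reads could not be placed within the gene. Of the fibroblast markers, 11 of 12 were found and all 11 were measured, with summed levels of 10045 and 21711 normalised CPM, but not all were higher in p65-null cells: Thy1 had 82.9 in wild-type and 9.64 in p65-null cells, and Dcn and Pdgfrb were lower too. By contrast 0 of the 6 epithelial markers were measured (summed levels of 0.118 and 2.81, with 4 of the 6 at 0 in wild-type cells). Endothelial markers summed to 3.44 and 2.18 and haematopoietic markers to 1.51 and 4.13 normalised CPM. Neuronal markers summed to 89.9 in wild-type and 45.4 in p65-null cells, most of it Tubb3 (76.3 and 26.5). Map2 had 10.3 and 8.55, and Stmn2 went the other way, with 2.36 and 9.38. In bulk RNA, fewer expressing cells and less RNA per cell cannot be told apart. The part of these markers in the results below was not tested. Of the genes of the whole table, 12134 were measured, with a median log2 ratio of -0.03.

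Among the 23 measured genes of zinc and copper handling, 5 were at least 2-fold lower in p65-null cells (21.7%), where the same held for 13.7% of all measured genes. None was at least 2-fold higher, against 12.1% of all measured genes. The other 18 lay within 2-fold, and of all measured genes 25.9% lay outside it in either direction. The lower genes were Mt1, Slc30a4, Slc39a8, Mtf2 and Slc39a6. In direction, 16 of the 23 were below and 7 above a log2 ratio of 0, and the median was -0.47. Of all 12134 measured genes, 6214 were below and 5920 above 0. A correction of all ratios for transcript GC content and length, described further on, moved the median to -0.14 and brought Mtf2 within 2-fold. Scaling to ribosomal protein genes lowered each log2 ratio by 0.43, which put the median at -0.91, with 19 genes below 0 and 4 above. All 23 counting intervals excluded 0, as did those of 79.4% of all measured genes. Some of the 23 came close to 0, such as that of Slc39a13 (0.01 to 0.25).

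The promoters of 4 of these genes are shown because the genes take different paths in the data: Mt1 and Mt2, a neighbouring pair with opposite ratios, Slc30a1, the zinc exporter gene known to answer to MTF1, and Slc30a4, the transporter gene with the largest difference before the GC and length correction (after it, Slc39a8 and Slc39a6 lay further from 0). Each is the RefSeq window (GRCm38.p6) of 250 bases before to 50 bases after an annotated start, written 5′ to 3′ on the gene's strand. For Mt1 and Slc30a1 that start, at 94179089 and 191906781, lies 206 and 84 bases inside the RefSeq gene span. Capitals mark matches to the core of the metal response element, searched as TGCACNC and TGCGCNC on both strands, overlapping matches being counted once.
Mt1 (chr8:94178839-94179138, plus strand): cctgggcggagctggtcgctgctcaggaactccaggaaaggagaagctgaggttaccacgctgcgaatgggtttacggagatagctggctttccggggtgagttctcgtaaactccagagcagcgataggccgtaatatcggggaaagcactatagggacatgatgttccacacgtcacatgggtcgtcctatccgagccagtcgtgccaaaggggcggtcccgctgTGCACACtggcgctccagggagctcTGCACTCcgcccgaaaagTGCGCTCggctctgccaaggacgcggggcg
Mt2 (chr8:94172368-94172667, plus strand): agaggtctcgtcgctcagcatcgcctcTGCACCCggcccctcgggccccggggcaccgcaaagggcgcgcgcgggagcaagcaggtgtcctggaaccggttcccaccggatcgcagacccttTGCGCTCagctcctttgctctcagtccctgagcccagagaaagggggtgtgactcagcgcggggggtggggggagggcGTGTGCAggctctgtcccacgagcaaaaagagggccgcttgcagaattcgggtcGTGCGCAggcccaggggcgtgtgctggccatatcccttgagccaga
Slc30a1 (chr1:191906531-191906830, plus strand): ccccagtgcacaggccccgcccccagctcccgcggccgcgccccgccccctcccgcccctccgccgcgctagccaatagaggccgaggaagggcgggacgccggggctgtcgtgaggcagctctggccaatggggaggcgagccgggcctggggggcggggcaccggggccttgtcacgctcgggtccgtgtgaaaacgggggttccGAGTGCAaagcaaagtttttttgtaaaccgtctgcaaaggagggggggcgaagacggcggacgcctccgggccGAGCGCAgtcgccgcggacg
Slc30a4 (chr2:122702614-122702913, minus strand): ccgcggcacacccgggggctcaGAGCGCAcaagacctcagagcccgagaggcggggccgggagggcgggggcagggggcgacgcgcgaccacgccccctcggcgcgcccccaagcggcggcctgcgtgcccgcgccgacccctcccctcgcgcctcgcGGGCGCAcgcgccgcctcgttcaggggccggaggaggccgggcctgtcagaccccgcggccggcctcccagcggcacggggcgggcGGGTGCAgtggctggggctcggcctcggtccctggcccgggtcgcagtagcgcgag

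The Mt1 window held 3 matches, at positions -23 to -17, 3 to 9 and 21 to 27 from the start of its window's transcript (94179089), and the Mt2 window held 4, at -223 to -217, -128 to -122, -50 to -44 and 5 to 11. Slc30a1 held 2 matches and Slc30a4 held 3. Of 32851 mouse promoter windows of the same length, 25.7% held at least 1 match, 6.14% at least 2, 1.31% at least 3 and 0.295% at least 4. For the genes described here, windows on chromosome 18, where Slc39a6 lies, were left out. Of the 21 measured genes with a window that was read, 12 held a match in at least 1 of their windows. Some of these genes have 2 windows, so a count per gene is not the same measure as a share of all windows. The shares of all windows were not matched for GC content. The kappaB consensus, the motif that NF-kB binds, was matched in 1 of the 21, Slc39a1, and in 8.46% of all windows. For Slc39a8 the starts of the windows lie 8397 and 8775 bases inside the RefSeq gene span, and for Slc31a2 6036 bases. Sequence at the beginning of those 2 spans was not searched. These matches are letters in a window and not measured binding. GENCODE M21 lists further Mt1 starts downstream of the window shown, and sequence outside the windows was not searched. The positions and counts for Mt1 and Mt2 therefore hold for these windows and not for their whole promoters. Neither of these windows had TATAAA in the 50 bases before its start, where 2.63% of all windows had it.

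The metallothionein genes held the largest difference of the 23 genes, and the pair had opposite ratios. Mt1 (transcript NM_013602, gene span on chromosome 8, 94178883 to 94180327) had 907.5 fragments in wild-type and 82.5 in p65-null cells, or 42.8 and 5.45 normalised CPM. Fragments were recovered from the deposited signal, as described further on, and a fraction of a fragment is taken to be a single mate of a pair. It was 7.85-fold lower in p65-null cells (6.26 to 9.96), a log2 ratio of -2.97 (-3.32 to -2.65), and 1.71% of all measured genes had a lower ratio. Mt2 (NM_008630, chromosome 8, 94172618 to 94173567), a close relative of Mt1, went the other way. It had 236 fragments in wild-type and 278.5 in p65-null cells, or 11.1 and 18.4 normalised CPM, and was 1.65-fold higher in the latter (1.38 to 1.97). Mt1 was low where Mt2 was high, and only Mt1 passed 2-fold.

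The order of the pair was opposite in the 2 libraries. Mt1 gave 79.4% of the fragments of both genes in wild-type cells (76.9% to 81.7%) and 22.9% in p65-null cells (18.6% to 27.5%). Per length of transcript, Mt1 stood 3.58-fold above Mt2 in wild-type cells, and Mt2 stood 3.63-fold above Mt1 in p65-null cells. These ratios within a library do not depend on how the libraries were scaled to each other. Both transcripts are short, 549 and 511 bases, with a GC content of 58.1% and 55.6%. Their longest identical stretch is 20 bases, and 0 of the 500 windows of 50 bases in the Mt1 transcript occurred in a transcript of another gene. Summed over both genes, metallothionein RNA was 53.9 normalised CPM in wild-type and 23.8 in p65-null cells, 2.26-fold lower (2.01 to 2.55).

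Of the exon bases of Mt2, 73.5% are overlapped by the antisense gene Gm45774 on the other strand. No source used here says whether the counting was stranded, so the reads of Mt2 and Gm45774 cannot be told apart. Mt1 and Mt2 lie 5316 bases apart, and the measured genes on either side of the pair were Bbs2, with a log2 ratio of 0.94 (0.66 to 1.23), and Nup93, with -0.02 (-0.11 to 0.07). Neither was lower by the margin of Mt1. Mt3, the metallothionein known mainly from brain, had 1 fragment in wild-type and 0 in p65-null cells, and 3 fragments, taken as the limit that a count of 0 allows, would be 0.198 normalised CPM there.

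**Figure D1:**
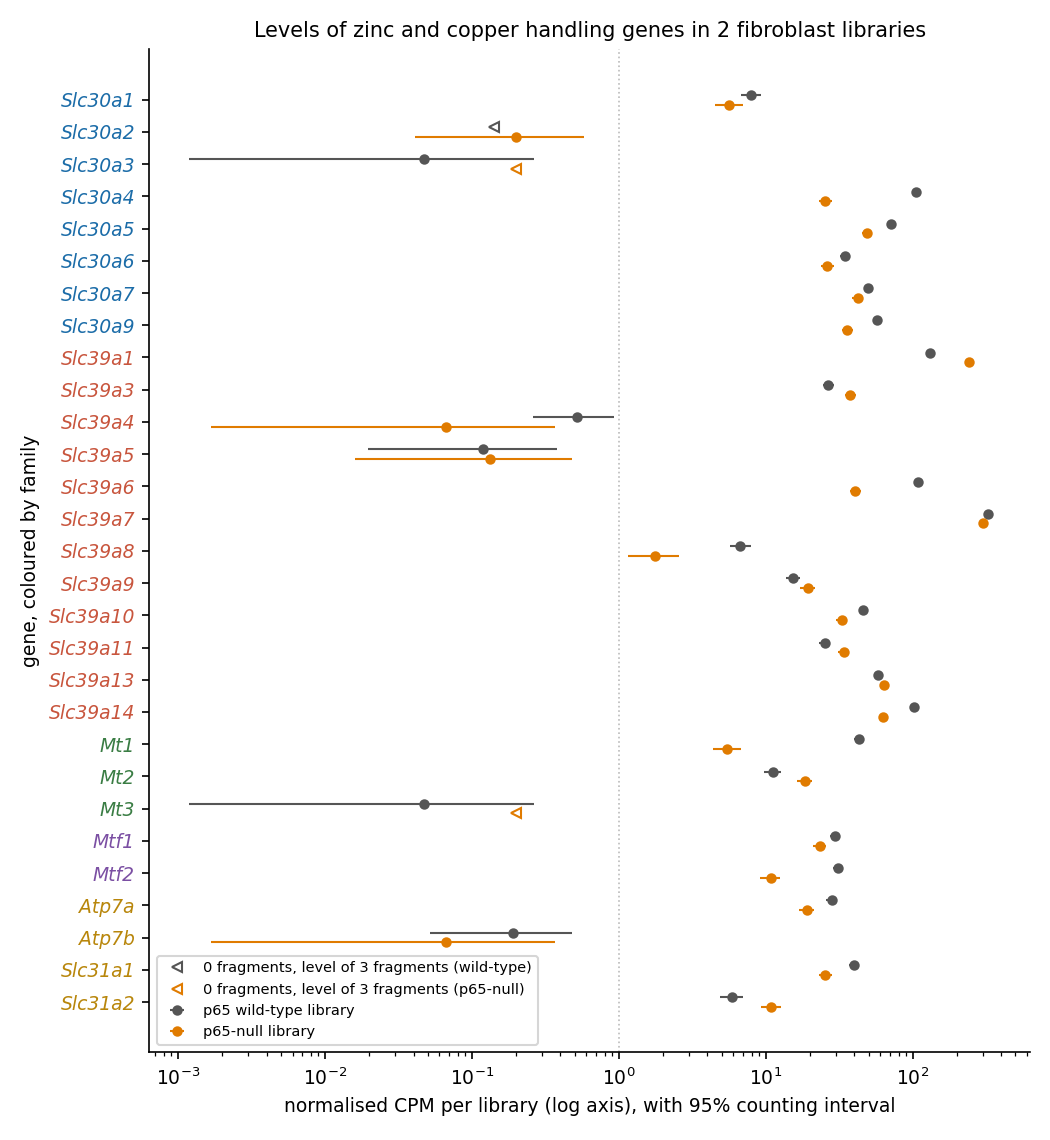
Normalised CPM of the 29 genes in the wild-type (grey) and p65-null (orange) library on a log axis, with bars for the 95% Poisson counting interval of each level and open triangles at the level of 3 fragments where a library had 0. The dotted line is 1 CPM. Mt1 stands at 42.8 in wild-type against 5.45 in p65-null cells, and Mt2 at 11.1 against 18.4.

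MTF1 and the protein of Mtf2 share a name only. Mtf1 encodes the zinc sensor that drives metallothionein genes, and Mtf2 encodes a PHD finger protein that guides the Polycomb repressor complex PRC2 to chromatin. Mtf1 had 29.5 normalised CPM in wild-type and 23.2 in p65-null cells, a log2 ratio of -0.34 (-0.53 to -0.15), and the corrected value was -0.18. Mtf1 RNA was within 2-fold where Mt1 RNA was not. The activity of the MTF1 protein was not measured, and its part in the Mt1 ratio was not tested. Mtf2 (chromosome 5, 108065660 to 108109219) had 31.0 and 10.8 normalised CPM, from 657.5 and 163 fragments, and was 2.88-fold lower in p65-null cells (2.42 to 3.44).

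The Mtf2 value has neighbours and sequence composition moving with it. Its nearest measured neighbours were also lower, Dipk1a at a log2 ratio of -2.27 (-2.56 to -1.99) and Tmed5 at -3.26 (-3.63 to -2.90). Tmed5 lies on the opposite strand, and in GENCODE M21 its exons overlap 6.93% of the exon bases of Mtf2. The RefSeq gene spans of Mtf2 and Tmed5 do not overlap and lie 12337 bases apart. At 38.2%, Mtf2 also had the lowest transcript GC content of the 23 genes, and after the correction its log2 ratio was -0.34. The part of either in the Mtf2 ratio was not tested.

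ZnT genes, the exporters, lay on 1 side: all 6 measured members had a log2 ratio below 0, except that Slc30a7 was at 0.48 after the GC and length correction. Below 0 before the correction were 6214 of all 12134 measured genes. Slc30a4 alone passed 2-fold (with ribosomal scaling Slc30a9 did too). The family's median was -0.52, and -0.14 after the correction. Summed per length of transcript, the family's level was 74.8 normalised CPM per kb in wild-type and 44.2 in p65-null cells.

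Slc30a4 (NM_011774, chromosome 2, 122681233 to 122702663) encodes ZnT4, which loads zinc into vesicles of the endosomal and secretory system. It had 2247 fragments in wild-type and 385 in p65-null cells, or 106 and 25.4 normalised CPM. It was 4.17-fold lower (3.74 to 4.65), at a log2 ratio of -2.06 (-2.22 to -1.90), and 3.25% of all measured genes had a lower ratio. The nearest measured genes on either side, Spata5l1 and Bloc1s6, had log2 ratios of -0.29 (-0.67 to 0.07) and 0.25 (0.03 to 0.47). Its transcript has a GC content of 41.2%, and the corrected log2 ratio was -1.17, still past 2-fold. In the wild-type library Slc30a4 made up 26.0% of the family's level per length, second to Slc30a5, and in p65-null cells 10.5%.

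Slc30a1 encodes ZnT1, the exporter of the plasma membrane and, like Mt1, a known target of MTF1. It had 168.5 and 85.5 fragments, or 7.94 normalised CPM in wild-type and 5.65 in p65-null cells, a log2 ratio of -0.49 (-0.89 to -0.11), or -0.13 after the correction. Its level per length was the lowest of the measured ZnT genes in both libraries, at 1.52 and 1.08 normalised CPM per kb. Slc30a1 lay on the same side as Mt1 but within 2-fold, and Mt2 on the other.

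Slc30a5, Slc30a6 and Slc30a7 encode ZnT5, ZnT6 and ZnT7, which carry zinc into the early secretory pathway, ZnT5 and ZnT6 as a pair. Slc30a5 had 70.9 and 48.5 normalised CPM in wild-type and p65-null library, Slc30a6 34.5 and 26.2, and Slc30a7 49.3 and 42.1. Their log2 ratios were -0.55 (-0.68 to -0.42), -0.40 (-0.58 to -0.22) and -0.23 (-0.37 to -0.08), and after the correction -0.23, -0.09 and 0.48. Slc30a9, which encodes a mitochondrial zinc exporter, had 57.1 and 35.9 normalised CPM and a log2 ratio of -0.67 (-0.82 to -0.52), or -0.14 after the correction. In level per length, Slc30a5 came first in both libraries, at 22.3 and 15.3 normalised CPM per kb. Slc30a2 had 0 fragments in wild-type and 3 in p65-null cells, and Slc30a3, known for filling synaptic vesicles with zinc, had 1 and 0.

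**Figure D2:**
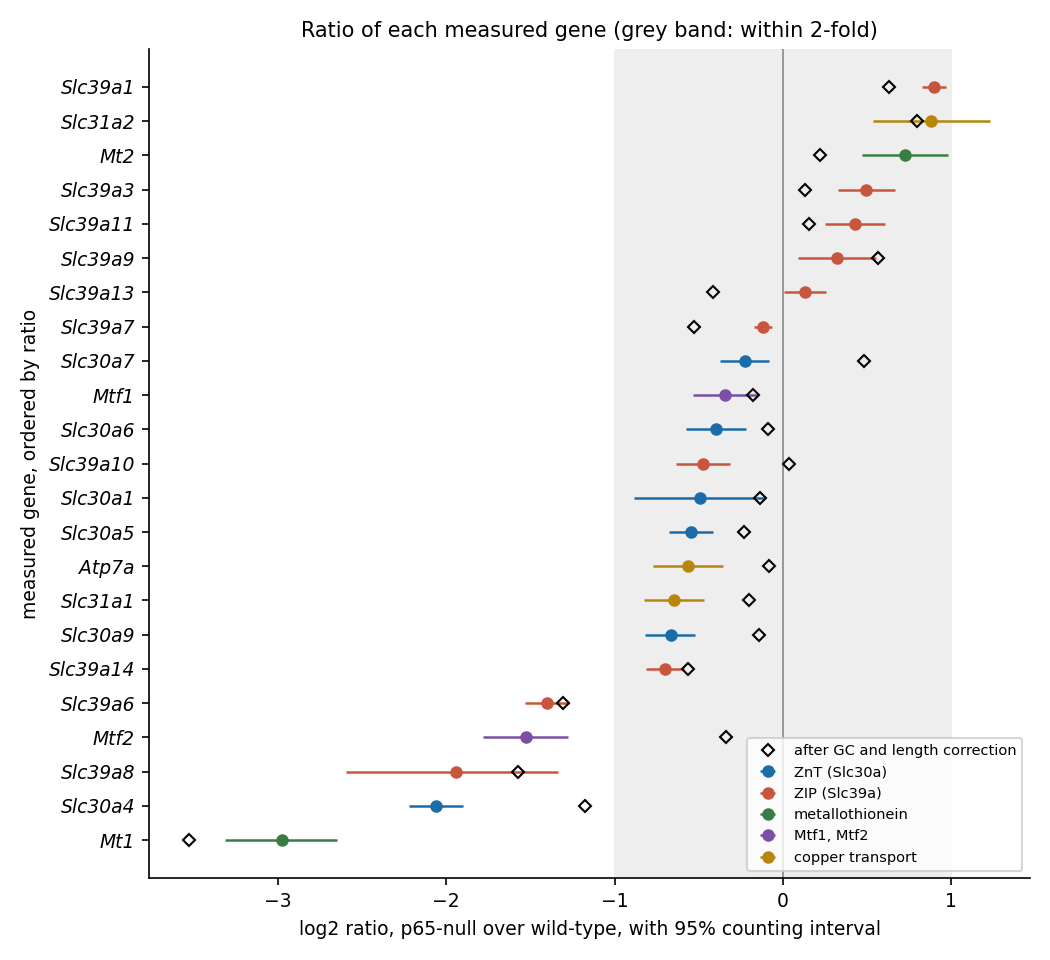
Log2 ratio of p65-null over wild-type for the 23 measured genes, ordered by ratio, with bars for the 95% counting interval, colours for the family and open diamonds for the value after GC and length correction. The 5 genes left of the grey band of 2-fold are Slc39a6, Mtf2, Slc39a8, Slc30a4 and Mt1, and the corrected value of Mtf2 (-0.34) lies inside the band.

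ZIP genes, the importers, divided evenly, with 5 of the 10 measured members above and 5 below a log2 ratio of 0. All 12134 measured genes had 5920 above and 6214 below. The median of the ZIP genes was 0.01. The median was below 0 with DESeq2 size factors, with total fragments (-0.05), with ribosomal scaling (-0.43) and after the GC and length correction (-0.19), and 0.12 with upper quartile scaling, so that no direction is given for the family. Slc39a8 and Slc39a6 were at least 2-fold lower and none was at least 2-fold higher. Summed per length, the family's level was 319.9 normalised CPM per kb in wild-type and 338 in p65-null cells. Set against the ZnT family, the summed ZIP level was 4.28-fold that of ZnT in wild-type and 7.65-fold in p65-null cells. This ratio does not depend on how the libraries were scaled to each other, but the GC and length correction was not applied to it. After that correction the median log2 ratios of the families lay close together, at -0.14 for ZnT and -0.19 for ZIP genes. The ZIP sum includes Slc39a7, whose fragments cannot be assigned to 1 gene, as described below.

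Slc39a8 (NM_001135149, chromosome 3, 135816882 to 135888572) encodes ZIP8, a carrier of zinc, manganese and cadmium whose gene is a known target of NF-kB. It had 142.5 fragments in wild-type and 26.5 in p65-null cells, or 6.72 and 1.75 normalised CPM. It was 3.84-fold lower (2.52 to 6.05) at a log2 ratio of -1.94 (-2.60 to -1.34), or -1.58 after the correction. Nfkb1, the NF-kB subunit gene that is its nearest measured neighbour, had a log2 ratio of -0.18 (-0.28 to -0.09). The level of Slc39a8 was the lowest of the measured ZIP genes, 0.621% of the family's level per length in wild-type and 0.153% in p65-null cells.

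Slc39a14 encodes ZIP14, a close relative of ZIP8 that also carries iron and manganese and is known to be induced in inflammation. It had 103 and 63.2 normalised CPM and was 1.63-fold lower in p65-null cells (1.51 to 1.76), within 2-fold, but at a log2 ratio of -1.13 with ribosomal scaling. Both relatives were lower, by different margins.

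Slc39a6 (NM_139143, chromosome 18, 24579881 to 24603817) and Slc39a10 encode ZIP6 and ZIP10, which can form a joint importer at the plasma membrane. Slc39a6 had 2284.5 and 617 fragments, or 108 and 40.8 normalised CPM, and was 2.64-fold lower in p65-null cells (2.42 to 2.89). Its log2 ratio was -1.40 (-1.53 to -1.27), and -1.31 after the correction. Slc39a10 had 45.7 and 32.9 normalised CPM and a log2 ratio of -0.47 (-0.63 to -0.32), or 0.03 after the correction. The ratios of the partners differed in size, and their direction parted once GC content and length were corrected for. Elp2, which lies 144 bases from Slc39a6, had a log2 ratio of -0.40 (-0.49 to -0.31), and Rprd1a, the nearest measured gene on the other side, -1.86 (-2.22 to -1.51).

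The most abundant ZIP genes per length of transcript, Slc39a7, Slc39a1 and Slc39a13, lay within 2-fold before any change of scaling. This order depends on length, since the matched Slc39a13 transcript has only 1291 bases. In normalised CPM, Slc39a6, which was more than 2-fold lower, stood above Slc39a13 in wild-type cells (108 against 58.0). Slc39a1, which encodes ZIP1, a zinc importer of the plasma membrane, had 130.5 normalised CPM in wild-type and 243 in p65-null cells, 1.86-fold higher (1.77 to 1.96), and reached a log2 ratio of 1.01 with upper quartile scaling. Its share of the family's level per length was 17.3% in wild-type and 30.4% in p65-null cells. Slc39a7 encodes ZIP7, which releases zinc from the endoplasmic reticulum, and was the most abundant ZIP gene in both libraries, at 141 and 129 normalised CPM per kb. Its log2 ratio was -0.12 (-0.18 to -0.07), but -0.53 after the correction and -0.55 with ribosomal scaling. Of the exon bases of Slc39a7, 80.7% are shared with the read-through gene Gm20427 on the same strand, so its fragments cannot be assigned to 1 gene. Smaller overlaps with genes on the opposite strand, of 2.37% to 10.5% of exon bases, are annotated for Slc30a1, Slc30a4, Slc30a7, Slc39a9, Slc39a13 and Mtf1, where reads of the 2 strands cannot be told apart. Slc39a13, whose product ZIP13 serves connective tissue, had 44.9 and 49.2 normalised CPM per kb and a log2 ratio of 0.13 (0.01 to 0.25), or -0.42 after the correction and -0.30 with ribosomal scaling.

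Slc39a3, Slc39a9 and Slc39a11 were higher by smaller margins. Slc39a3, which encodes a further importer of the plasma membrane, had 26.7 and 37.6 normalised CPM and a log2 ratio of 0.49 (0.32 to 0.66), or 0.13 after the correction. Slc39a9, which encodes ZIP9 of the Golgi, had 15.4 and 19.3, and a log2 ratio of 0.32 (0.09 to 0.55), or 0.56 after the correction. Slc39a11 had 25.2 and 33.8, and a log2 ratio of 0.43 (0.25 to 0.60), or 0.15 after the correction. With ribosomal scaling Slc39a9 was at -0.11 and Slc39a11 just below 0. Below the expression minimum, Slc39a4, the importer of the gut, had 11 fragments in wild-type and 1 in p65-null cells, a log2 ratio of -2.97 (-8.40 to -0.19), and Slc39a5 had 2.5 and 2.

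**Figure D3:**
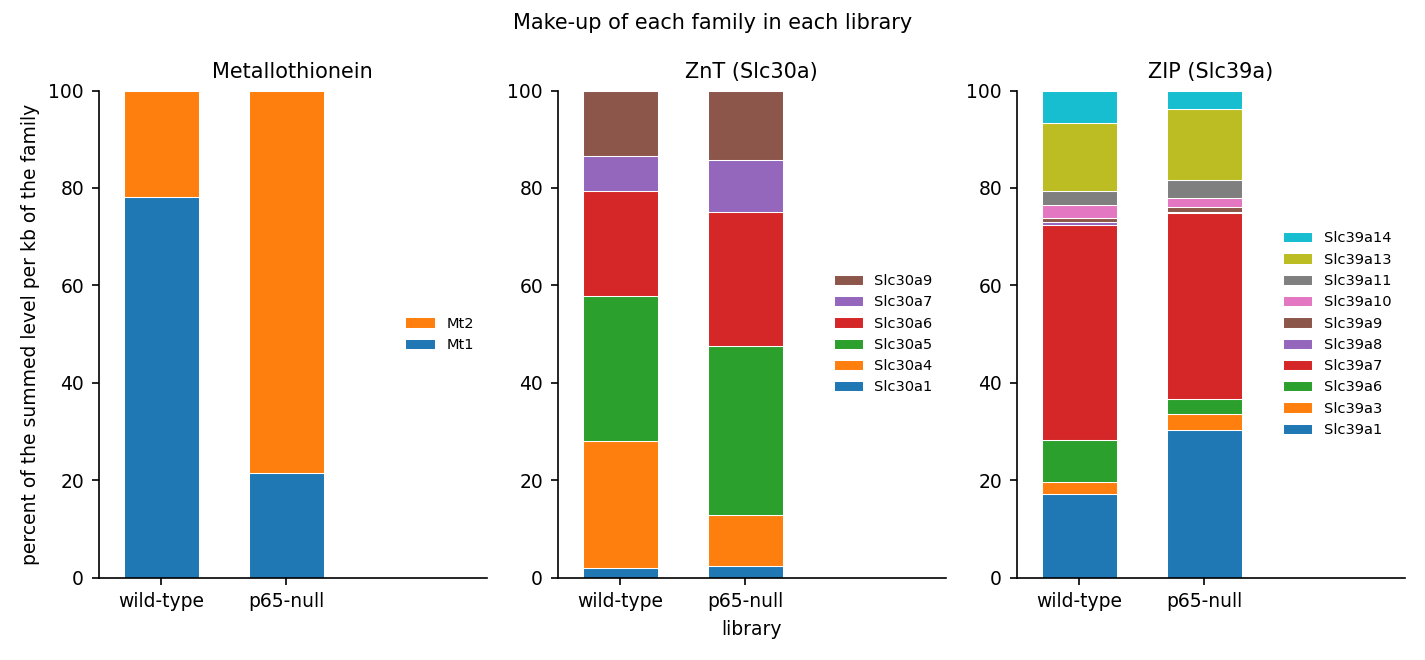
Stacked shares, in percent, of the summed level per kb of the metallothionein, ZnT and ZIP families in each library, 1 colour per measured gene (genes under the expression minimum take the rest, too small to see). The order of Mt1 and Mt2 is reversed between the libraries, the Slc30a4 share is 26.0% against 10.5%, and the Slc39a1 share 17.3% against 30.4%.

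The measured copper transporter genes lay within 2-fold, except that Slc31a1 was at a log2 ratio of -1.08 with ribosomal scaling. Slc31a1 (chromosome 4, 62360583 to 62391769) encodes CTR1, the copper importer of the plasma membrane, and had 39.7 normalised CPM in wild-type and 25.4 in p65-null cells, a log2 ratio of -0.65 (-0.82 to -0.47), or -0.21 after the correction. Slc31a2 (chromosome 4, 62280393 to 62298412) encodes CTR2, a relative found mainly in endosomes and lysosomes, and had 5.87 and 10.8 normalised CPM, a log2 ratio of 0.88 (0.53 to 1.23). Slc31a1 and Slc31a2, 62171 bases apart, also had opposite ratios. They are not nearest neighbours, since the measured gene Fkbp15, at a log2 ratio of 0.35 (0.21 to 0.50), lies between them and overlaps the Slc31a1 span. Slc31a1 gave 87.1% of the fragments of both genes in wild-type cells (84.8% to 89.2%) and 70.1% in p65-null cells (66.1% to 73.9%). Per length, Slc31a1 stood 3.31-fold above Slc31a2 in wild-type and 1.15-fold above it in p65-null cells.

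Atp7a, on the X chromosome, encodes the pump that supplies copper to secreted enzymes such as lysyl oxidase. It had 28.1 normalised CPM in wild-type and 18.99 in p65-null cells, a log2 ratio of -0.56 (-0.77 to -0.36), and -0.08 with GC content and length corrected for. Xist, which coats the inactive X chromosome, had 956 fragments in wild-type and 2 in p65-null cells, and its part in the Atp7a value was not tested. Atp7b, the pump known mainly from liver, had 4 fragments in wild-type and 1 in p65-null cells, a log2 ratio of -1.51 (-7.14 to 1.82).

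Sequence composition moved with these ratios. Across the 12058 measured genes with a matched transcript, the log2 ratio followed transcript GC content with a Spearman rho of 0.43, and across the 23 genes here with 0.52. Genes of 1 library share its depth and preparation and are not independent replicates. The 6 measured ZnT transcripts had a GC content of 41.2% to 46.2%, under the median of all measured genes, 50.5%, whereas the ZIP transcripts ranged from 44.5% to 61.9%. After the correction the median of the 23 genes was -0.14, and 4 genes remained at least 2-fold lower, Mt1 at -3.53, Slc39a8 at -1.58, Slc39a6 at -1.31 and Slc30a4 at -1.17. Of all measured genes, 1101 were at least 2-fold lower after the correction, against 1668 before it. Mt1, with a GC content above the median, lay further from 0 after the correction, and Mt2, at 0.22, nearer to it. The part of GC content in the uncorrected ratios was not tested beyond this correction.

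**Figure D4:**
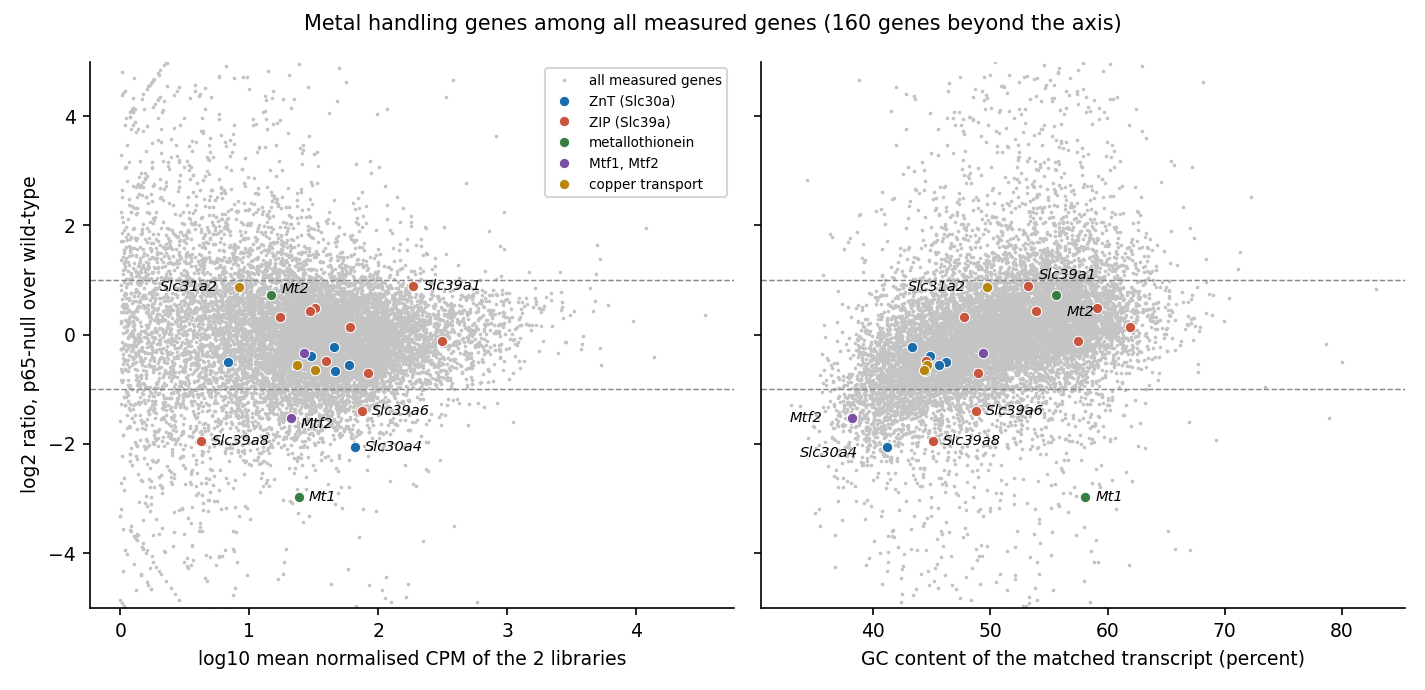
Log2 ratio of all measured genes (light grey) and of the 23 zinc and copper handling genes (coloured by family) against log10 mean normalised CPM on the left and against transcript GC content in percent on the right, with dashed lines at 2-fold. 160 genes lie beyond the axis, and Mt1 stands low at a GC content of 58.1%, while Mtf2 and Slc30a4 lie at the low end of the GC range.

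Other genes of metal handling were read from 5 lists. Of 47 symbols looked up, 43 were found and 40 measured, of which 7 were higher and 12 lower in p65-null cells by at least 2-fold, with a median log2 ratio of -0.30. Those counts are 17.5% and 30.0% of the 40 genes, against 12.1% and 13.7% of all measured genes. The lists are small and their members went both ways.

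Of 5 other measured genes of zinc handling, 3 were at least 2-fold lower and none higher, beside 13.7% lower and 12.1% higher of all measured genes. After the GC and length correction 1 of the 5 was lower by that margin. The zinc-sensing receptor gene Gpr39 was 3.42-fold lower (2.83 to 4.16), at 29.7 and 8.69 normalised CPM. The divalent cation channel gene Trpm7 was 2.55-fold lower (2.28 to 2.85) and the zinc metallochaperone gene Cbwd1 2.36-fold lower (1.95 to 2.87), but both were within 2-fold after the GC and length correction, at log2 ratios of -0.30 and -0.38. Of 6 genes known as targets of MTF1 beside the metallothioneins, 2 were at least 2-fold lower and none higher. They were the glutathione synthesis gene Gclc, at 2.07-fold (1.80 to 2.38) and a log2 ratio of -0.89 after the correction and -0.94 with upper quartile scaling, and Pgf, a growth factor gene, at 2.61-fold (1.27 to 5.88). Another of the 6, Selenow, had a log2 ratio of -0.56, but -1.07 after the correction, so that 2 of the 6 were then at least 2-fold lower. The median log2 ratio of these 6 was -0.0037, and -0.36 after the correction.

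Enzymes at the cell surface or secreted, which receive zinc in the secretory pathway, went both ways. Of 5 measured, 2 were at least 2-fold lower and 2 at least 2-fold higher, beside 13.7% lower and 12.1% higher of all measured genes. Alpl, which encodes the tissue-nonspecific alkaline phosphatase, a client of the ZnT5, ZnT6 and ZnT7 transporters, was 4.49-fold lower in p65-null cells (3.32 to 6.18). Nt5e, which encodes the nucleotidase CD73, was 12.5-fold lower (5.91 to 31.9). In the other direction Enpp2, which encodes autotaxin, was 45.3-fold higher (38.1 to 54.2), at 6.25 and 283 normalised CPM, and Enpp3 was 8.40-fold higher (4.92 to 15.3). Enpp1 had a log2 ratio of 0.04 (-0.15 to 0.23). By comparison Slc30a5, Slc30a6 and Slc30a7 lay within 2-fold.

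Of 14 measured genes of copper handling, 3 were higher and 3 lower by at least 2-fold, beside 12.1% higher and 13.7% lower of all measured genes. The metalloreductase genes Steap4 and Steap2 were 3.43-fold (2.80 to 4.25) and 2.38-fold lower (2.21 to 2.57), Steap2 being at a log2 ratio of -0.79 after the correction, and their relative Steap3 was 6.32-fold higher (5.27 to 7.61). Cp, which encodes the copper ferroxidase ceruloplasmin, was 19.6-fold lower (15.8 to 24.7), at 110 and 5.61 normalised CPM. Ccs, the chaperone that gives copper to superoxide dismutase, was 2.54-fold higher (2.26 to 2.87), or 0.88 on the log2 scale after the correction and 0.92 with ribosomal scaling, and Commd1, which acts in copper export, 2.04-fold higher (1.88 to 2.23), with a log2 ratio of 0.97 when scaled by total fragments and 0.60 with ribosomal scaling. Among 10 measured copper enzymes, 2 were higher and 2 lower by that margin. The amine oxidase gene Aoc3 was 26.5-fold higher (13.6 to 58.9) from 9 wild-type fragments, and the lysyl oxidase relative Loxl3 4.51-fold higher (4.25 to 4.80). The extracellular superoxide dismutase gene Sod3 was 3.14-fold lower (2.41 to 4.15) and Aoc2 2.06-fold lower (1.30 to 3.37), with a log2 ratio of -0.93 when scaled by the upper quartile.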

How the data were processed

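RNA was sequenced on an Illumina instrument, per the labels' protocols, in 1 library per genotype. Of tools, HOMER, edgeR, STAR 2.4 and bcl2fastq 2.16 are named in the submitters' processing notes, with the build mm10 and no roles. How reads were counted, by strand or not, and any filter are not stated there. The deposited values, named raw counts, are a scaled signal per RefSeq transcript, as deposited: both columns have nearly the same total (18117934 and 18117930). All 14112 wild-type and 14626 p65-null values of up to 5000 steps were whole multiples of 1 step (100%, tolerance 0.0055), 0.436 and 0.587, and 2 steps were taken as 1 fragment. That is an assumption, on which the fragment counts and counting intervals rest. Of the values of 1 to 20 steps, 72.8% in wild-type and 75.7% in p65-null cells were even. The recovered fragments were not put to a count test, since 2 libraries leave no residual degree of freedom.

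Symbols came from the RefSeq table (16743 transcripts) or GENCODE M21 (83), with 55 transcripts left unmatched. Libraries were scaled by TMM (trimmed mean of M values; edgeR 4.0.16, R 4.3.3; factors 1.02 and 0.980). A library at 0 fragments takes a floor of 3, and no ratio is given where both are at or under it. GC content and length of the matched GENCODE M21 transcript, present for 99.4% of measured genes, were corrected by loess (span 0.3), re-centred on the uncorrected median. The calculation of ratios and intervals was checked on simulated counts with known ratios. Alternatives were DESeq2 1.42.0 size factors, total fragments, upper quartile and ribosomal scaling, thinning, a prior count of 2, other expression minimums, the GC and length correction and the interval end.

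All family members were named, and up to 3 genes higher and 3 lower in each other list, by the interval end nearest to no difference. Enpp1 and Selenow were named beside these. Neighbouring genes were added as the nearest measured ones. Members, lists and rules were chosen with earlier results of these data known.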

Additional observations from a re-analysis of the deposited data

How the results depend on the processing

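No paired analysis was possible because each genotype has 1 library. Across 10 alternatives, 18 of the 23 measured genes kept the direction of their ratio in each alternative run, and 18 stayed on their side of 2-fold. Not all of the 10 could turn a direction. The expression minimums leave each ratio unchanged, and the interval end keeps its side or gives 0. DESeq2 size factors, total fragments and upper quartile factors move every log2 ratio by only -0.009, -0.06 and 0.12. The direction differed for Slc30a7 and Slc39a10 (0.48 and 0.03) under the GC and length correction, for Slc39a9 and Slc39a11 under ribosomal scaling, and for Slc39a13 under both. The count of genes at least 2-fold higher was 1 with upper quartile factors, where Slc39a1 reached 1.01, and 0 otherwise. The count of genes at least 2-fold lower was 8 with scaling to ribosomal protein genes, Slc30a9, Slc31a1 and Slc39a14 joining, and between 4 and 7 in the other alternatives. Of all 12134 measured genes, 3093 were lower by that margin with ribosomal scaling and 1668 in the main analysis. After the GC and length correction 1101 were, beside 4 of the 23 genes. With ribosomal scaling the median of the 23 genes was -0.91 and that of all measured genes -0.46. The gap between these medians is fixed in advance, because such scaling moves every log2 ratio by the same amount. That scaling lowers each log2 ratio by 0.43, upper quartile scaling raises it by 0.12, and the share of higher genes among all genes past 2-fold was 46.9% in the main analysis and 22.5% with ribosomal scaling. In the other alternatives the median lay between -0.53 and -0.14. Slc39a8 lay under a minimum of 5 CPM and has no value there. The count for the 5 further lists was 19 in the main analysis and 14 to 21 in the alternatives. Depth limits the 6 genes under the expression minimum, which had 11 fragments or fewer in either library.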
